A study of Mus musculus with 3 samples.

Results

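The replication-dependent histone genes are the short genes that supply the core and linker histones of newly made chromatin. They were taken as the protein-coding genes of the RefSeq table (assembly GRCm38.p6, the assembly that mm10 names) whose current symbol begins with H1f, H2ac, H2bc, H3c or H4c, or whose older symbol begins with Hist1h, Hist2h, Hist3h or Hist4h, and which lie in the clusters on chromosomes 13, 3 and 11. This rule gave 66 of 21887 protein-coding genes: 6 for the linker histone H1, 18 for H2A, 18 for H2B, 12 for H3 and 12 for H4. H4bc24 (older symbol Hist1h2br, an H2B gene by that symbol), H2bu2 and H2aw entered through the older symbol alone. The rule used names and positions and no measured value.

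H3K27ac, acetylation of lysine 27 of histone H3, which marks active promoters and enhancers, had been mapped by chromatin immunoprecipitation and sequencing in MIN6, a mouse insulinoma line used as a model of the pancreatic beta cell. There were 3 libraries, 1 per genotype: wild type, heterozygous Arid1a knockout and homozygous Arid1a knockout. The product of Arid1a is a subunit of BAF, the mammalian SWI/SNF complex, which slides and evicts nucleosomes. Per the labels, the cells carried lentiviral Cas9 and a lentiviral guide RNA against Arid1a, and clones grown from single cells were assigned to the 3 genotypes by PCR and by Western blotting for the protein. Peak names of the wild-type library carry the unexplained tag GAL4, and whether that library came from a clone given the Arid1a guide or from another control is unclear, which bears on every ratio to wild type below. With 1 library per genotype there was no replicate error, so that no test was made and every difference below compares 3 libraries. Differences between clones and between genotypes cannot be told apart.

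Cells make these histones mainly in S phase, when replicated DNA has to be packaged, and the genes are known to be transcribed at a nuclear compartment called the histone locus body, organised by the coactivator NPAT. They lack introns in their usual form, and their mRNAs end in a stem-loop in place of a poly(A) tail. Many H2A and H2B genes stand back to back in divergent pairs that share 1 short promoter. A few members, H1f6 (H1t), H2bc1 (TH2B) and H2ac1 (TH2A), are known for expression in the testis.

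On chromosome 13 the members formed 2 groups more than 500 kb apart. The first held 23 genes over 328 kb (chr13:21715711-22043658) and the second 31 genes over 404 kb (chr13:23531044-23934913). The chromosome 3 cluster held 10 genes over 50.3 kb (chr3:96219885-96270192), and on chromosome 11 a pair, H2bu2 and H2aw, spanned 6.28 kb (chr11:58948911-58955192). The median annotated length was 760.5 bp for H1, 504.5 bp for H2A, 491.5 bp for H2B, 502 bp for H3 and 405.5 bp for H4. There were 5 H2B genes annotated at over 2700 bp, of which H2bc6, at 37455 bp, was the longest.

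Promoter sequences of 8 members are shown to compare the classes and the members that differed in their peaks. In wild type the starts of H2bc12, H2ac20, H3c6 and H1f4 lay between peaks, those of H4c3, H4c4 and H2bc1 had a peak within 1 kb on the downstream side only, and H1f6 had none. The sequences are from RefSeq on GRCm38.p6, 5′ to 3′ on the strand of the gene, and end at the base before its annotated start. Capitals mark 4 motifs or their reverse complements. TATAAA is the TATA box, and NF-Y is known to bind the CCAAT box. The octamer, ATTTGCAT, is a known site of POU2F1. The letters GGTCCG belong to site II, an element of H4 promoters that HINFP is known to bind. H2bc12 (chr13:22035644-22035820, plus strand) shows a shared H2A-H2B promoter up to the edge of its partner H2ac12. H2ac20 (chr3:96220881-96221071, minus strand) is from the chromosome 3 cluster and H3c6 (chr13:23562386-23562635, minus strand) is an H3 gene.
H2bc12: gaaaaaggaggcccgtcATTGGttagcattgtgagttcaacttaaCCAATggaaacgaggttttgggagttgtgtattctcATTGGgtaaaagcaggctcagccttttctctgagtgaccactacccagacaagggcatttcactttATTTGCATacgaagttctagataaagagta
H2ac20: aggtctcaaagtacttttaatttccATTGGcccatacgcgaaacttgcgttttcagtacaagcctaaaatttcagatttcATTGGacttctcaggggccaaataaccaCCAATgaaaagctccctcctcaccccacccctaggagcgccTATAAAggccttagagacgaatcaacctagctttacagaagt
H3c6: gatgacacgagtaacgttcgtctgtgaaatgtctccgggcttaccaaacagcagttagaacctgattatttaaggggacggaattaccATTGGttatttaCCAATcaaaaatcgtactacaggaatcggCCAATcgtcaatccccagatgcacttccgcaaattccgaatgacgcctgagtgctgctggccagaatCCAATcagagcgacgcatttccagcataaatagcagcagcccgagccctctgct
H4c3 (chr13:23698459-23698708, minus strand) and H4c4 (chr13:23581318-23581567, plus strand) are H4 genes with and without a peak in the heterozygous library. H1f4 (chr13:23622559-23622808, minus strand) is an H1 gene with 3 peaks in every library.
H4c3: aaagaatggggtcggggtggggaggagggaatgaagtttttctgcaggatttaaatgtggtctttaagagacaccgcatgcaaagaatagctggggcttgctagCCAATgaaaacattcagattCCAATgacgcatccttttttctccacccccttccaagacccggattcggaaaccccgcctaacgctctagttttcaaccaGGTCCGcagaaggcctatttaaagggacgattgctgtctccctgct
H4c4: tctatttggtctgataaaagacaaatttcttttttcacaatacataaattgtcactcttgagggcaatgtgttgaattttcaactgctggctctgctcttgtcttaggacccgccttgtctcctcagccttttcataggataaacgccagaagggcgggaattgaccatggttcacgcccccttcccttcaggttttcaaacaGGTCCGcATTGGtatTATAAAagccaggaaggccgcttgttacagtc
H1f4: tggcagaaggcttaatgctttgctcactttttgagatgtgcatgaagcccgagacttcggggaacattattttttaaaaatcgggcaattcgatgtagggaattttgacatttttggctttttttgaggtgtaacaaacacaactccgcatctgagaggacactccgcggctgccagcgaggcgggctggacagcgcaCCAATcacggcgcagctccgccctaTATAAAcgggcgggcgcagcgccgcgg
The testis genes H2bc1 (chr13:23934157-23934406, minus strand) and H1f6 (chr13:23695561-23695810, plus strand) differed from the rest in their peaks. The H2bc1 window overlaps the span of Gm33516, a long noncoding RNA gene.
H2bc1: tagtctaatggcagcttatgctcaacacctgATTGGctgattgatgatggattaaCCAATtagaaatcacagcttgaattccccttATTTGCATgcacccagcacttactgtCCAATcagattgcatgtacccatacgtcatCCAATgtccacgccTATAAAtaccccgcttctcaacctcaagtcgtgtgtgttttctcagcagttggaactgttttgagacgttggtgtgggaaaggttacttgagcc
H1f6: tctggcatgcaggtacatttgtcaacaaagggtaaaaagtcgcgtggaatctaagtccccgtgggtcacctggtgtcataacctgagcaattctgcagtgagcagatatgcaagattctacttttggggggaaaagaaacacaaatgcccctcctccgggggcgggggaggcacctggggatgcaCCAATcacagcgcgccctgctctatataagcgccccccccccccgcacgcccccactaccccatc

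The table held a promoter window of 300 bases, 250 before and 50 after the start, for 61 members with 62 starts. It had none for H4c14, H2bc21, H3c7, H3c1 and H2bc4. CCAAT was present on either strand in 54 of 62 windows, against 37.4% of all 32851 promoters of the table. All windows of H1, H2A, H2B and H3 genes held it, but only 3 of 11 of H4 genes did. TATAAA was present in 35 of 62 windows, against 13.6% of all promoters. The octamer was found in 7 H2A and 7 H2B windows and in no window of the other classes, against 1.74% of all promoters. Partners of a divergent pair can hold the same copy of a motif, since their windows overlap. GGTCCG was found in 10 of 11 H4 windows, against 8.25% of all promoters, and began 46 or 47 bases before the start in 6 of them. These are matches of letters and not measured binding.

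Nearly every member was marked by H3K27ac in every library. A peak that overlapped the gene or lay within 1 kb of it was found for 65 of 66 in wild type, for 62 in heterozygous and for 65 in homozygous cells. Of all protein-coding genes, 60.2%, 56.1% and 56.7% had such a peak. Of 2523 other genes no longer than 2 kb, which offer a window as short as that of most members, 10.98%, 10.2% and 10.7% had one. Members often had more than 1: at least 2 peaks lay at 58 genes in wild type, 52 in heterozygous and 56 in homozygous cells. Neighbours shared peaks, so that the members were served by only 88, 80 and 84 distinct peaks, of which 44, 44 and 46 served at least 2 genes. Genes are therefore not independent points in the counts that follow. Genes of a class are also near-identical in their coding sequence, and how reads that match several of them were placed is unknown, so that the split of signal between such copies is uncertain.

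H1f6 was the only member with no peak in any library. The other testis genes, H2bc1 and H2ac1, shared 1 narrow peak of 347 bp in wild type and 353 bp in the homozygous library, which lay over H2bc1, and had no heterozygous peak. The H4 gene H4c4 had 593 bp of peak in wild type, none in heterozygous and 495 bp in homozygous cells. These were the 3 members lost in the heterozygous library against wild type, where 9.06% of the 13499 genes with a peak in either library were lost, and none was gained, against 2.44% of genes. The same 3 were present in the homozygous library and so counted as gained against the heterozygous one, against 6.03% of 13064 genes, and none was lost, against 5.07%. Between the homozygous library and wild type no member was gained and none lost, against 2.85% and 8.52% of 13557 genes.

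Peaks at the members covered 65395 bp in wild type, 44029 bp in heterozygous and 59127 bp in homozygous cells. The heterozygous total was 0.673 and the homozygous total 0.904 times that of wild type, and the homozygous total was 1.34 times the heterozygous. The lists differed in length as a whole, with 41490, 31365 and 34298 peaks over 25.1, 17.5 and 20.2 Mb. As a share of all bases under peaks, members took 0.261%, 0.252% and 0.293%, shares that stood nearer to one another than the totals did.

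The order of the libraries was the same in each cluster. The first chromosome 13 group had 20974 bp in wild type, 13917 bp in heterozygous and 18864 bp in homozygous cells, and the second 31263, 19461 and 27828 bp. In the chromosome 3 cluster the values were 9324, 7929 and 9225 bp, and there the heterozygous total stood nearest to wild type, at 0.850 times, with the homozygous at 0.989 times. H2bu2 and H2aw together had 3834, 2722 and 3210 bp.

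**Figure D1:**
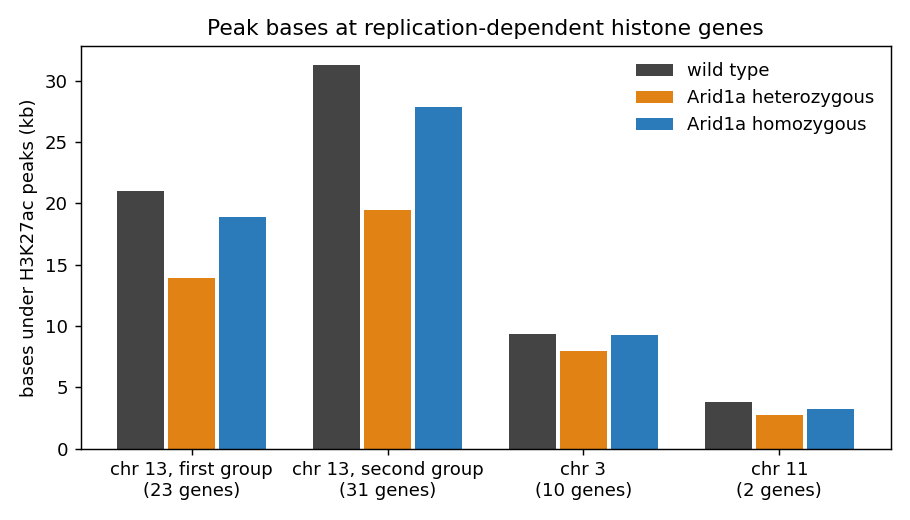
Bars give the bases under H3K27ac peaks at histone genes (kb, from 0) in each cluster and library, with 1 library per genotype and so no error bars. The heterozygous bar is the lowest of the 3 in all 4 clusters, from 19461 bp in the second chromosome 13 group to 2722 bp on chromosome 11.

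Gene by gene, 63 of the 65 members with a peak in either library had fewer covered bases in the heterozygous library than in wild type, where 81.2% of all genes did. The median ratio was 0.708, against 0.827 over all genes. At least 2-fold fewer bases were found at 15 of the 65, against 20.8% of genes, and at least 2-fold more at none, against 3.74%. In the homozygous library 48 of 65 had fewer bases than wild type, against 66.5% of genes, with a median ratio of 0.943 against 0.923. None was 2-fold lower, against 15.7%, or 2-fold higher, against 4.99%. Between the knockouts, 3 of 65 had fewer bases in the homozygous library, against 33.6% of genes. There 9 members had at least 2-fold more, against 13.4%, and none at least 2-fold fewer, against 7.43%, with a median ratio of 1.30 against 1.10.

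**Figure D2:**
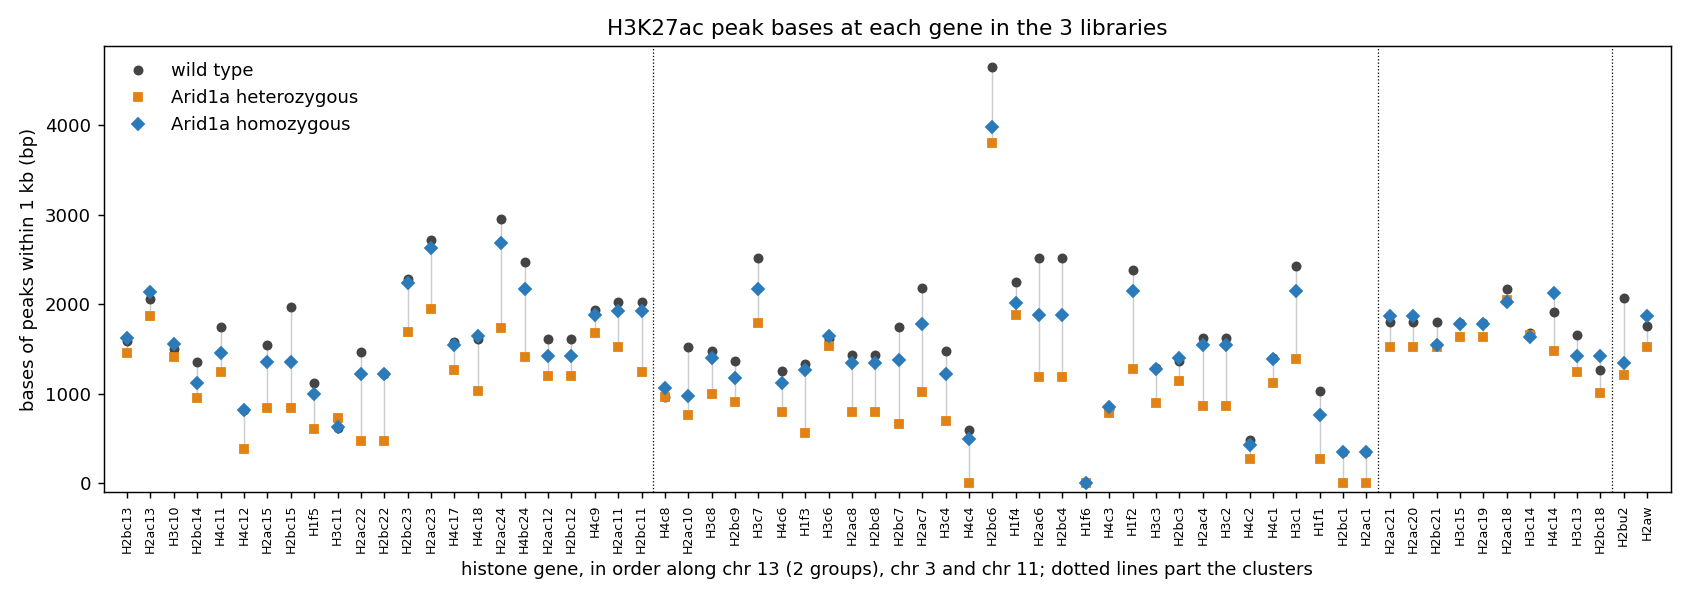
Each column is 1 histone gene in order along its cluster, and the points give the bases (bp) of peaks within 1 kb in wild type (circles), heterozygous (squares) and homozygous (diamonds) libraries. Heterozygous squares are the lowest at most genes, and H2bc6, with the longest annotation, stands highest at 4654 bp in wild type.

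The linker histone H1 genes, whose products bind DNA between nucleosomes, had a median of 1221 bp in wild type, 587.5 bp in heterozygous and 1129.5 bp in homozygous cells. H1f1 went from 1030 bp in wild type to 268 bp in the heterozygous library and 762 bp in the homozygous. No peak overlapped H1f1 itself. These bases belonged to peaks also counted for its neighbour H3c1, which ended 189, 917 and 215 bp before the H1f1 start. H1f2 had 2383, 1282 and 2144 bp, and H1f4 had 2253, 1880 and 2019 bp. These 3 genes are examples chosen after their values were seen. The heterozygous value was the lowest at all 5 H1 genes with a peak.

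The H2A genes had medians of 1794.5 bp, 1358.5 bp and 1825 bp in the same order, and the H2B genes 1681, 1166 and 1412 bp. H2A and H2B form the dimers that flank the H3-H4 tetramer in the nucleosome. On chromosome 13 the 5 largest drops in the heterozygous library were all in these classes. H2ac6 and H2bc4, which shared their peaks, fell from 2517 bp in wild type to 1188 bp, and had 1881 bp in the homozygous library. H2ac24 had 2956, 1740 and 2679 bp, and H2ac7 had 2184, 1019 and 1777 bp. H2bc15 had 1973, 842 and 1358 bp. On chromosome 13 the 5 largest drops in the homozygous library against wild type included H2ac6, H2bc4 and H2bc15 again, with H2ac10, at 1525 bp in wild type and 977 bp in the homozygous library, and H2bc6, at 4654 and 3979 bp. H2ac23, with 2721, 1948 and 2634 bp, had the third-highest total in wild type on chromosome 13. H2ac13 and H2bc3 stood slightly higher in the homozygous library than in wild type, at 2136 against 2060 bp and 1404 against 1364 bp.

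The H3 genes had medians of 1616, 1313.5 and 1553 bp. H3c7 had the most among them, with 2522, 1791 and 2176 bp. H3c6 and H3c10 changed little: H3c6 had 1609, 1535 and 1649 bp, and H3c10 had 1497, 1407 and 1556 bp. H3c11, with 615 bp in wild type and 624 bp in the homozygous library, had more in the heterozygous library, at 730 bp. The H4 genes had medians of 1327, 997.5 and 1252.5 bp. H4c8, with 959, 965 and 1061 bp, was the other member with more bases in the heterozygous library than in wild type. H4c3 had 831, 789 and 850 bp.

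On chromosome 3 every gene had fewer bases in the heterozygous library than in wild type. The ratio was 0.911 at H3c15 and H2ac19, 0.946 at H2ac18, 0.993 at H3c14 and lower at the other 6 genes. At the regions of these 4 named genes the reads stacked at the summit, solved as described below, were 0.523 to 0.621 times wild type. H2ac21 and H2ac20 had the same peaks and 1797, 1525 and 1871 bp. Their neighbour H2bc21 had 1797 and 1525 bp in the first 2 libraries and 1549 bp in the homozygous. H3c15 and H2ac19 shared 1792, 1633 and 1784 bp. H2ac18 had 2169, 2052 and 2029 bp, and H3c14 had 1674, 1662 and 1637 bp. H4c14 had 1912, 1476 and 2121 bp, the highest of the cluster in the homozygous library. H3c13 had 1654, 1243 and 1420 bp, and H2bc18 had 1269, 1004 and 1420 bp. The homozygous library added a region of 322 bp beside H2ac21 and one of 222 bp beside H4c14, and lacked one of 387 bp beside H3c13 that the other libraries had. On chromosome 11, H2bu2 had 2074, 1204 and 1344 bp. It fell by 730 bp from wild type to the homozygous library, the largest such drop of any member. That drop was in called width only. The summit reads of its regions were 181 and 168 in wild type and 186 and 185 in the homozygous library. H2aw had 1760, 1518 and 1866 bp.

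**Figure D3:**
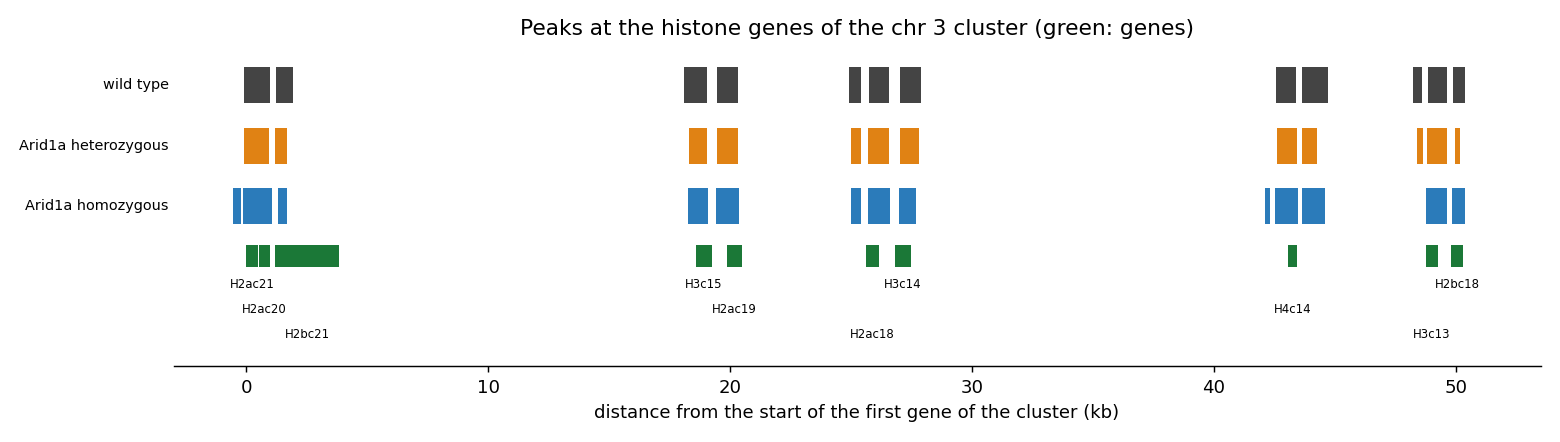
Peaks at the histone genes of the chromosome 3 cluster are drawn to scale as boxes in 3 tracks, 1 per library, over the genes (green), with distance from the start of the first gene in kb. The peaks sit at the genes in all 3 tracks, with small additions beside H2ac21 and H4c14 in the homozygous track.

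When the peaks of the 3 libraries were merged where they touched, members had 91 regions. Of these, 75 held a peak in all 3 libraries, 6 in wild type only, 5 in wild type and homozygous, 2 in wild type and heterozygous, 3 in homozygous only and none in heterozygous only. Over the genome 36.8% of 52938 regions held a peak in all 3 and 23.1% in wild type only.

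The height of the histone gene peaks set the heterozygous library apart from the other 2. For each peak the number of reads stacked at its summit, the pile-up, was solved from the deposited fold enrichment and p-value. At the 75 regions with a peak in all 3 libraries, the median pile-up was 176 reads in wild type, 70 in heterozygous and 166 in homozygous cells. Over all 19504 regions of that kind it was 83, 59 and 82. The median ratio of heterozygous to wild type was 0.409 at the histone genes (interquartile range 0.361 to 0.462), against 0.741 over all such regions (0.587 to 0.921). The homozygous to wild-type ratio was 0.943, against 1.01, and the homozygous to heterozygous ratio was 2.26, against 1.36. Dividing the first of each pair by the second gives 0.553, 0.932 and 1.67, from which a difference in depth that acts on all regions alike drops out. Whether depth acted alike on tall and on lower regions was not tested. The highest pile-up among the common regions outside the members was 400 in every library. Read totals are not known here. The lowest background of any peak in a list, only a rough guide to its depth, was 2.17, 1.73 and 1.73 reads. It is a single value per list and does not show that the knockout libraries were of like depth.

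The heterozygous pile-up was at most 0.5 times that of wild type in 61 of 75 regions, against 14.8% of all such regions. It was below both other libraries in 74 of 75, against 68.1%. The homozygous pile-up was at least 2 times the heterozygous in 56 of 75, against 14.6%, and at most 0.5 times wild type in 1, against 7.49%. It was below wild type in 51 of 75, against 47.6%. Since the histone regions were high in wild type, they were also set beside the 7296 other common regions with a wild-type pile-up of at least 100, where the median heterozygous to wild-type ratio was 0.713. Neighbouring regions lie in the same clusters and are not independent. The exception was a region 918 bp long inside the long annotation of H2bc6 (chr13:23592870-23593787), with pile-ups of 43 in wild type, 79 in heterozygous and 17 in homozygous cells.

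**Figure D4:**
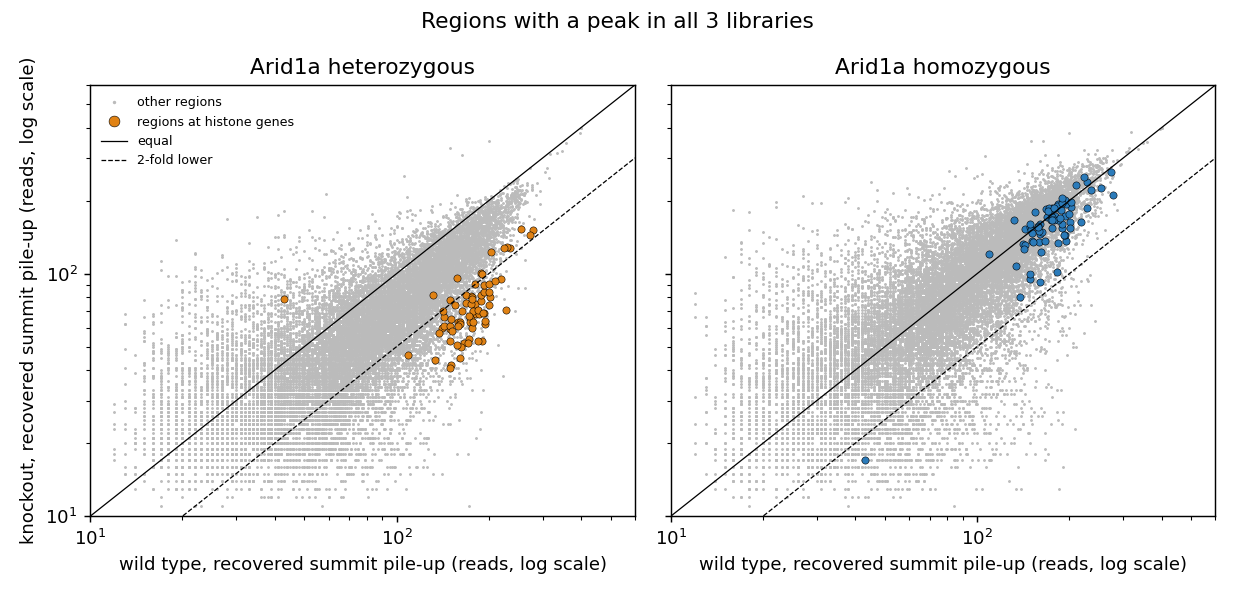
Each point is a region with a peak in all 3 libraries, with its wild-type pile-up (reads, log axis) against that of the heterozygous (left) or homozygous (right) library, grey for other regions and coloured for the 75 at histone genes. On the left 61 of the 75 lie on or under the dashed line of a 2-fold lower value, and on the right 1 does.

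All 4 clusters and all 5 classes had a lower heterozygous pile-up. The median ratio to wild type was 0.391 in the first and 0.386 in the second chromosome 13 group, 0.534 on chromosome 3 and 0.458 on chromosome 11. By class it was 0.358 for regions at H1 genes, 0.396 for H2A, 0.390 for H2B, 0.433 for H3 and 0.428 for H4. The H1 genes were also lower in the homozygous library, with a median ratio of 0.746 and all 9 regions below wild type. Regions at H2A genes had 0.990 and 19 of 35 below wild type. At H1f2 the 3 regions had pile-ups of 193, 192 and 161 in wild type, 69, 69 and 45 in heterozygous and 144, 144 and 92 in homozygous cells. At H1f5 the values were 195, 62 and 136, and at H1f3 166, 52 and 137. At the H2ac6 and H2bc4 pair one of the regions had 171, 52 and 181, the highest homozygous to heterozygous ratio of the 75, at 3.48. At H3c3 and H2bc3 a region had 273, 144 and 262, and at H4c14 a region had 229, 129 and 238. These regions at H1f2, H1f5, H1f3, H3c3 and H4c14 were chosen as examples after their values were seen.

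The local background against which the authors' caller judged each peak moved with these pile-ups. It had been solved from the same deposited values, and its median heterozygous to wild-type ratio at the 75 regions was 0.343, against 0.732 over all common regions. The homozygous to wild-type ratio of the background was 0.787, against 0.925. Median peak widths moved less, at 0.712 times wild type in the heterozygous library (0.881 over all common regions) and 0.942 in the homozygous (0.953). The sources used here do not state which reads the background was drawn from, and they give no control. The background therefore cannot be taken as a measure separate from the pile-ups. Its part in the lower heterozygous pile-ups was not tested.

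Within each list, histone gene peaks were tall but scored a low fold enrichment. The median deposited fold was 3.44 in wild type, 3.81 in heterozygous and 4.01 in homozygous cells, against 5.67, 5.81 and 6.31 over all peaks. Of the member peaks, 80 of 88, 71 of 80 and 73 of 84 fell below the median fold of their own list. Their median pile-up, in contrast, was 172.5, 69.5 and 160.5 reads, against 49, 47 and 54. The low fold went with a high local background, 22.2, 9.66 and 21.6 times the lowest of the list, against 3.34, 3.88 and 4.10 for all peaks. Other peaks inside the cluster spans did not share it, at 2.63, 2.86 and 3.80 times, nor did peaks within 1 Mb outside the spans, at 3.65, 3.52 and 4.86 times. The highest fold at members belonged, except in heterozygous cells, to the isolated H2bc1-H2ac1 peak, at 14.3 in wild type and 18.9 in homozygous cells, whose pile-up in wild type was only 67. In the heterozygous library H4c11 ranked first by fold, at 8.19. By −log10 q, the highest member peak in wild type was that of H4c3, at 111.

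At most members in wild type the start lay in a gap between called peaks. Of the 62 starts, 51 were under a wild-type peak at the position 500 bp upstream, 43 at 250 bp upstream, 3 at 100 bp upstream, 9 at the start and 59 at 400 bp downstream. The heterozygous library had 38, 33, 2, 10 and 42 at these positions, and the homozygous 47, 41, 3, 19 and 58. The start lay in a gap with a peak within 1 kb on either side for 45 starts in wild type (72.6%), 37 in heterozygous (59.7%) and 31 in homozygous cells (50.0%). Over 21263 starts of all genes that share was 12.9%, 11.9% and 11.7%. The median gap was 263, 294 and 246 bp at members, against 221, 223 and 207 bp. A gap between called peaks was thus present at genes in general, and was found at a larger share of histone genes. The shares over all genes include genes with no peak, however. Only 60.2%, 56.1% and 56.7% of protein-coding genes had one, against nearly every member. Peaks were also called against the local background, which at member peaks was 22.2, 9.66 and 21.6 times the lowest of the list. For all peaks it was 3.34, 3.88 and 4.10 times. The same number of reads may thus be called at some starts and not at others. Reads inside the gaps were not measured, and the part of the background in the gaps was not tested. A flanking peak of a member can also be that of a neighbouring member. H2ac12 and H2bc12, for example, had the same gap of 189 bp in wild type. The start itself was under a peak for 9, 10 and 19 members (14.5%, 16.1% and 30.6%), against 30.0%, 26.4% and 27.9% of all starts.

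**Figure D5:**
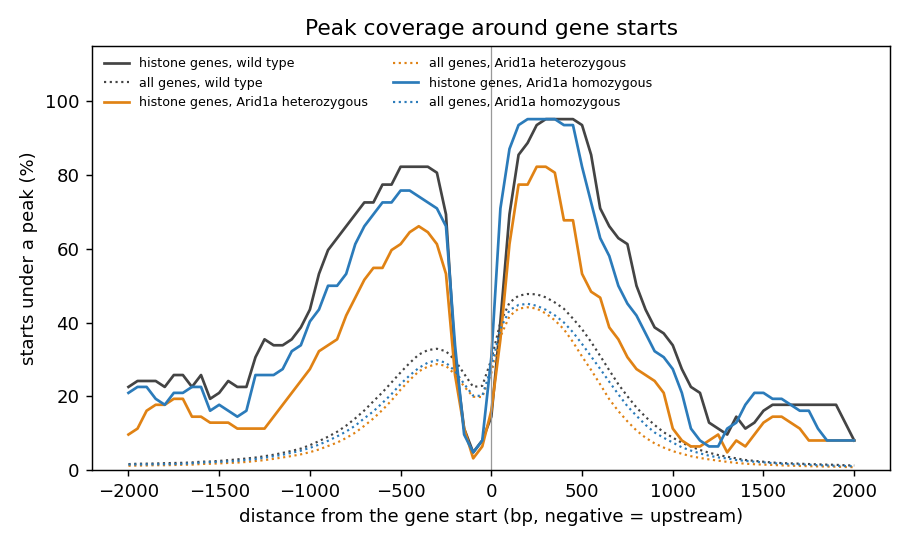
Lines give the percent of gene starts under a peak at each distance from the start (bp, upstream negative) for the 62 starts of histone genes (solid) and 21263 starts of all genes (dotted), by library. All 3 solid lines drop under 5% at 100 bp upstream and rise on both sides, to 95.2% (wild type) and 82.3% (heterozygous) downstream.

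The shared promoters of the H2A-H2B pairs lay in such gaps. There were 10 divergent pairs whose starts lay 164 to 281 bp apart (median 204.5 bp), and the midpoint between the starts was outside every peak in all 3 libraries at all 10. The promoter of H2bc12 printed above is such a stretch, between a region over H2ac12 and one that begins at its last bases and runs over H2bc12. Counting a copy that 2 windows share once, none of the 11 octamer copies of the members fell under a peak in any library, but over all promoters of the table only 10.5%, 9.45% and 8.56% of 561 copies did. CCAAT copies of members fell under a peak in 5, 3 and 4 of 112, against 12.1%, 9.89% and 10.96% of 15894 copies. For GGTCCG it was 1 of 12 in each library, against 43.2%, 38.8% and 39.4% of 2691. TATAAA copies did so in 6, 4 and 7 of 35, against 6.90%, 5.66% and 5.83% of 5162. These are small counts, and they rest on called peaks, with the same limit from the local background as the gaps.

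At histone genes outside the replication-dependent set, the heterozygous pile-ups stood nearer to those of all regions. Of 13 genes for replication-independent variants, which are made through the cell cycle or in special cells, 11, 10 and 11 had a peak. At their common regions the median heterozygous to wild-type pile-up ratio was 0.704, near the 0.741 of all common regions. H3f3b, which encodes the variant H3.3, had 1110, 1121 and 997 bp, and H2ax, whose product is phosphorylated at DNA breaks, had 1968, 1782 and 1906 bp. H2aj had 494 bp in wild type, none in heterozygous and 520 bp in homozygous cells. Macroh2a1, an H2A variant with a large additional domain, had the most bases in wild type, 4636 bp, and 1245 and 1409 bp in the knockouts. H1f7 and H1f8, linker histones of germ cells, had no peak.

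All 21 listed genes for transcription at the histone locus body and for histone mRNA processing had a peak in every library, and their median pile-up ratio of heterozygous to wild type was 0.853. Npat, the organiser of the body, had 1857, 1608 and 1538 bp. Slbp, which binds the stem-loop of histone mRNA, had 1081, 942 and 983 bp, and Hinfp, which acts on H4 promoters, had 961, 824 and 812 bp. Cpsf3, the nuclease that cuts histone pre-mRNA, had 2190 bp in wild type and 853 and 939 bp in the knockouts. Lsm10 had the fewest in the homozygous library, with 553, 483 and 433 bp, and Yy1 the most, with 2424, 2391 and 2730 bp. All 19 histone chaperone genes had a peak in every library, with a ratio of 0.738. Among these, Chaf1a, of the assembly factor CAF-1, had 879, 768 and 982 bp, Asf1b had 1005, 905 and 1205 bp, Ubn1 had the most in wild type, with 2708, 1368 and 2805 bp, Npm3 had the fewest there, with 565, 458 and 490 bp, and Ipo4, an importer of histones, had 1114, 406 and 386 bp.

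Inside the cluster spans stood 9 protein-coding genes that are not histone genes, of which 6, 4 and 3 had a peak. Slc17a2 and Slc17a3 had peaks of 347 and 792 bp in wild type and none in the knockouts, and Slc17a4 had 244 and 229 bp and none in the homozygous library. Hfe, a regulator of iron uptake, had 1662, 634 and 824 bp. These genes had only 3 common regions, whose median heterozygous to wild-type pile-up ratio was 0.373, also low. Unlike at the histone genes, the homozygous to wild-type ratio was low too, at 0.480 against 0.943. The homozygous to heterozygous ratio was 1.29, against 2.26 at the histone genes. As a check of the cell line, 7, 5 and 7 of 7 beta cell marker genes had a peak, Pdx1 and Chga lacking one in the heterozygous library, and 2, 3 and 2 of 8 markers of other cell types had one.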

How the data were processed

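H3K27ac was measured in 3 MIN6 libraries, 1 per genotype. Peaks had been called by the authors for each library with MACS2 on mm10, after bcl2fastq, per the submitters' processing notes. The sources used here do not give versions, aligner, control, read filters, the calling threshold or how reads matching several copies were placed. The deposited lists give each peak a score, a fold enrichment (a ratio to local background), its summit and a −log10 p and q. GAL4, a tag of unknown meaning, stands in the wild-type peak names, so that which control the wild-type library is rests on the labels alone. Score and fold themselves were compared within a list only. A common −log10 q limit across lists was used only as an alternative.

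Peaks overlapping a gene or within 1 kb of it were taken, merged and summed per cluster. Pile-up and background, which are compared between lists, were solved for each peak from the deposited fold, taken as (pile-up + 1)/(background + 1), and the −log10 p, taken as a Poisson tail, to within 0.001. Only whole-number pile-ups were tried. A match within this limit was found for every peak of the wild-type (41490) and homozygous (34298) lists. In the heterozygous list it was found for 31364 of 31365. A test on simulated data used the same formulas, so it checked the solving and not the formulas. That the caller used these formulas is an assumption, and the pile-ups are not scaled for depth. Overlaps were checked with bedtools 2.31.1. Python 3.11.15, pandas 2.3.3 and scipy 1.17.1 were used.

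Named are all members on chromosomes 3 and 11, and on chromosome 13 those gained, lost or without a peak, the 5 with the most wild-type bases and the 5 at either end of each knockout minus wild-type difference. Members and lists were chosen with earlier results of these data known. The variant, histone locus body and chaperone lists held 16, 23 and 19 genes, of which 14, 21 and 19 were found, and 1 variant, H2bu2, was itself a member. Proteins were not compared, since no protein table was used here.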

Additional observations from a re-analysis of the deposited data

How the results depend on the processing

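The covered bases were recomputed with peaks on the gene only or within 5 kb, higher −log10 q limits, lists of equal length, a 50% overlap, clipped peaks, peaks of at least 300 bp, and, added after seeing the data, without the 5 longest annotations. Over these settings the ratio of covered bases at all members ranged from 0.611 to 0.680 for heterozygous over wild type, 0.891 to 0.937 for homozygous over wild type and 1.33 to 1.46 for homozygous over heterozygous. The 3 members lost in the heterozygous library against wild type became 5 with peaks on the gene only, 5 with a −log10 q of at least 10, 5 with peaks of at least 300 bp, and 15 when 2-fold lower counted as lost. The 3 gained in the homozygous against the heterozygous library became 5, 5, 5 and 9 under the same settings. The cause was not tested. No direction was reversed. The pile-up alternatives were the background in place of the pile-up, a −log10 q of at least 10, no long annotations and summed pile-ups. They were added after seeing the data and gave heterozygous to wild-type ratios of 0.343 to 0.425. The 0.343 is that of the background, which cannot be taken as a measure separate from the pile-ups. Read depth and a replicate library, which would set the error of each value, are not given here. No paired analysis was possible because each genotype had 1 library.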
